A study of Mus musculus with 6 samples.

Results

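The genes described here encode coactivators, histone-modifying enzymes and chromatin remodellers. They are 58 mouse genes of 21883 protein-coding genes, taken by name from a list of acetyltransferases, deacetylases, methyltransferases, demethylases, coregulators and remodelling ATPases, and they were sorted into 6 classes by what their proteins do. The study mapped where tagged OTUD3, a deubiquitinase that removes ubiquitin from other proteins, was enriched on chromatin in mouse fat. AAV2-Otud3-Flag, an adeno-associated virus vector, was given by intraperitoneal injection, and epididymal adipose tissue was collected 4 weeks later. Chromatin was precipitated with an antibody to the Flag tag in 3 libraries, numbered 1, 3 and 4, and 3 input DNA libraries, whose values were not analysed here, came from tissue treated in the same way. Every library therefore carries the vector, and no library from tissue without tagged OTUD3 was analysed here. The labels call the source an adipocyte although whole tissue was taken, and they name no strain, sex, age or vector promoter. Nothing in them ties a library to its own animal, so the spread between libraries may be technical. Peak lists hold no expression values, and the tissue could not be checked against its marker genes.

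Chromatin regulators change how readily DNA is read. Acetyltransferases add acetyl groups to histones and other proteins, and deacetylases take them off, while methyltransferases and demethylases do the same with methyl groups. Coregulators such as the nuclear receptor coactivators link transcription factors to these enzymes, and remodelling ATPases use energy from ATP to slide or exchange nucleosomes. In fat cells several of these proteins work with PPARγ and other nuclear receptors during differentiation.

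The data are peak lists, in which each peak has a summit, the base with the strongest enrichment. A member gene was counted as hit in a list when a summit lay inside the gene or within 5 kb of either end, in mm10 coordinates. The lists held 11871, 6531 and 13496 distinct peaks in replicates 1, 3 and 4. The median peak rested on 4, 6 and 5 fragments, numbers worked back from the fold and p that the authors' peak caller gave. Only 40, 26 and 67 peaks had a q below 0.05. The 162 summits at member genes rested on 3 to 8 fragments, and 0 of them had a q below 0.05. The lowest q of any was 0.156, so enrichment at a single member site was not distinguishable from background at this depth, and the results below are counts of weak peaks.

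Peaks at these genes were more numerous than at most genes, and most members had one. Of the 58 members, 49 had a summit in at least 1 list, 10 in all 3 lists, 23 in 2 lists and 16 in 1 list. The other 9, namely Kat2a, Kat5, Sirt6, Hdac7, Eed, Kdm1a, Kdm2b, Kdm5b and Chd8, had none. Of all 21883 protein-coding genes, 12223 (55.9%) had none. Replicate 1 hit 37 members (63.8%), against 25.2% of all protein-coding genes. In replicate 3, 24 members (41.4%) were hit, against a background of 15.8%. For replicate 4 the members numbered 31 (53.4%), against 23.8%. A summit in all 3 lists was found for 17.2% of the members and for 4.4% of all genes.

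The members are long, and a long gene offers more room for summits. The median member spanned 66.8 kb and the median protein-coding gene 17.2 kb. The 500 genes nearest in length to each member gave 22.8, 15.8 and 24.3 hit genes for a list of this size in replicates 1, 3 and 4, and 5.59 genes hit in all 3 lists. The members' 37, 24 and 31 exceeded these numbers by a wide margin in replicate 1, by less in replicate 3 and by the least in replicate 4. Members without a summit numbered 9, against 19.5 for genes of like length. In replicate 4 the members no longer exceeded genes of like length once weaker peaks were left out. With the 6531 peaks of lowest p in each library, replicate 4 hit 9 members against 14.2 for genes of like length (13.3% of all genes), while replicate 1 hit 26 against 14.9 and replicate 3 hit 24 against 15.8. Under that choice 2 members were hit in all 3 lists, against 2.62 for genes of like length. With only peaks at or above the median fold of their list, 25, 13 and 10 members were hit in replicates 1, 3 and 4, against 13.9, 9.37 and 14.7, and 2 were hit in all 3 lists, against 1.67.

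**Figure D1:**
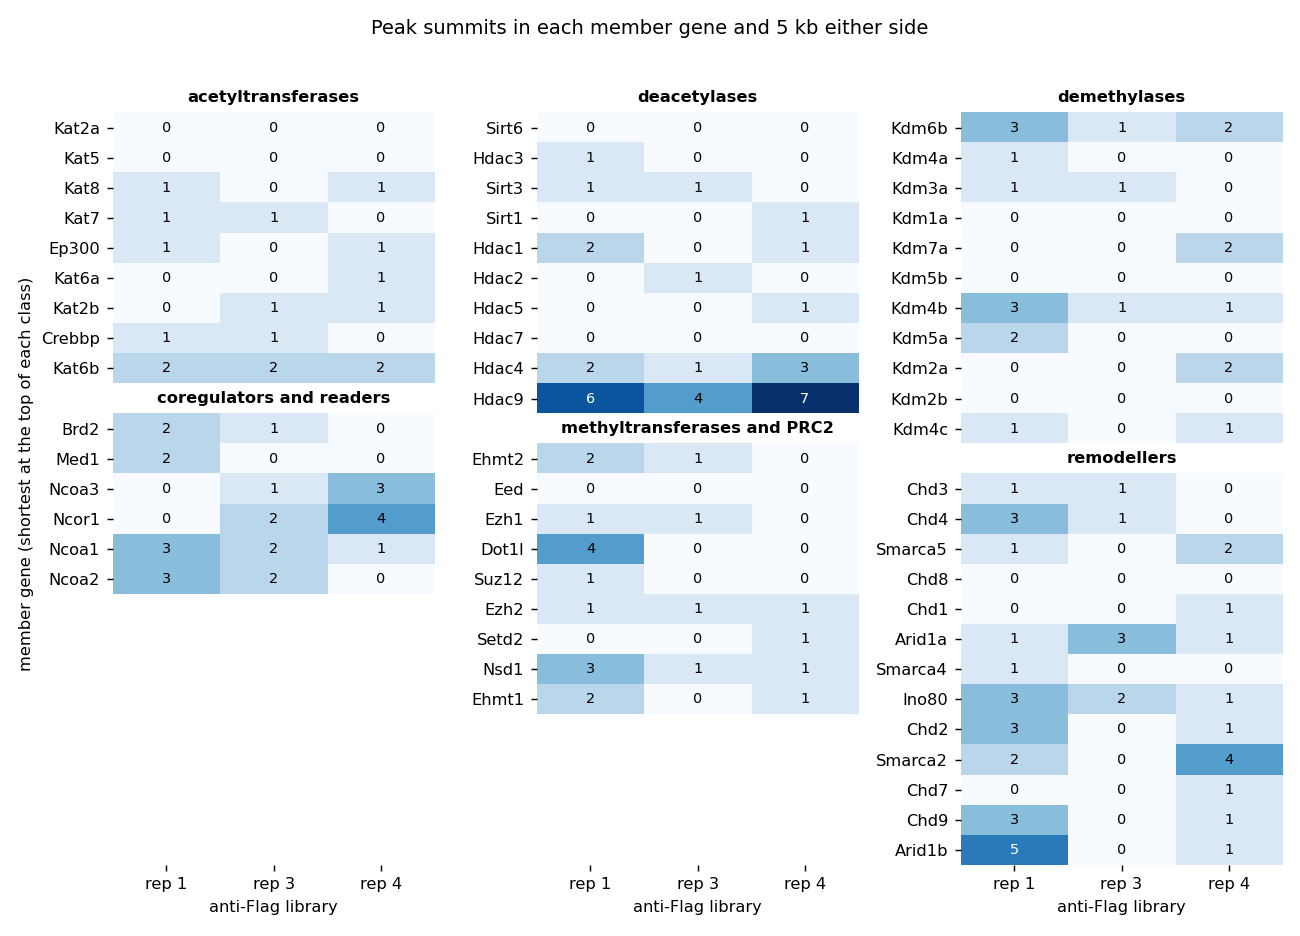
Number of peak summits in each of the 58 member genes and 5 kb either side, by anti-Flag library (columns) and class (blocks), shortest gene at the top of each block. Hdac9, the longest member, holds 6, 4 and 7 summits, and 9 rows are at 0 in every library.

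Summits were then set against the number that length alone predicts, from a negative binomial regression of summits per gene on the logarithm of the window's length and its square, fitted across all 21883 genes. The members held 162 summits in the 3 lists together, against 98.9 predicted. In single lists there were 76, 34 and 52 summits, or 2.08, 1.59 and 1.27 times the prediction in replicates 1, 3 and 4 (mean 1.65 ± 0.406, SD, n = 3). The median member had 2 summits and the median gene 0, and 40 of the 58 members (69.0%) lay above their own prediction, against 34.4% of all genes. That share itself depends on length, because a gene without a summit cannot lie above its prediction and 55.9% of all genes had none. It was not computed for genes of like length. Without Hdac9 the members held 145 summits against 90.9 predicted.

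The surroundings of the members were also rich in summits. In the 100 kb beyond each 5 kb flank there were 25.1 summits per Mb in the 3 lists together, close to the 26.1 per Mb inside the members' windows. Around genes of like length the density was 16.9 per Mb, and inside their windows 16.3 per Mb. The deacetylases differed, with 15.5 per Mb in their surroundings against 17.3 around genes of like length. Inside the deacetylase windows there were 22.2 per Mb against 13.4. In every other class the surroundings lay above those of genes of like length. With the summits of the surroundings added to the regression, the ratio of observed to predicted summits at the members was 1.43 in place of 1.64. How far the surroundings account for the members' counts was not tested.

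No single member passed the test for more summits than its length predicts. With Benjamini-Hochberg adjustment over all genes, 0 members had an adjusted p below 0.05 in the negative binomial test, one-sided, and 4 of all genes did (0.0183%). At an unadjusted p below 0.05 there were 9 members (15.5%), against 3% of all genes. A Poisson model in place of the negative binomial one gave 0 members after adjustment, with 10 of all genes, and 11 members before it. The share of all genes before adjustment was not counted for the Poisson model, so its 11 cannot be set against the 3%. The 9 of the negative binomial test, named after their values were seen, were Kdm6b, Brd2, Ehmt2, Chd4, Dot1l, Ino80, Arid1a, Kdm4b and Hdac1. Kdm6b had the lowest value (p = 0.000362, negative binomial adjusted p = 0.396). Hdac1, Kdm4b and Arid1a lay just under the threshold, at p of 0.0496, 0.0494 and 0.0493. Of the 9, Kdm6b and Arid1a alone stayed below it without replicate 1, 5 did without replicate 3, 8 without replicate 4 and 5 with gene bodies alone.

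**Figure D2:**
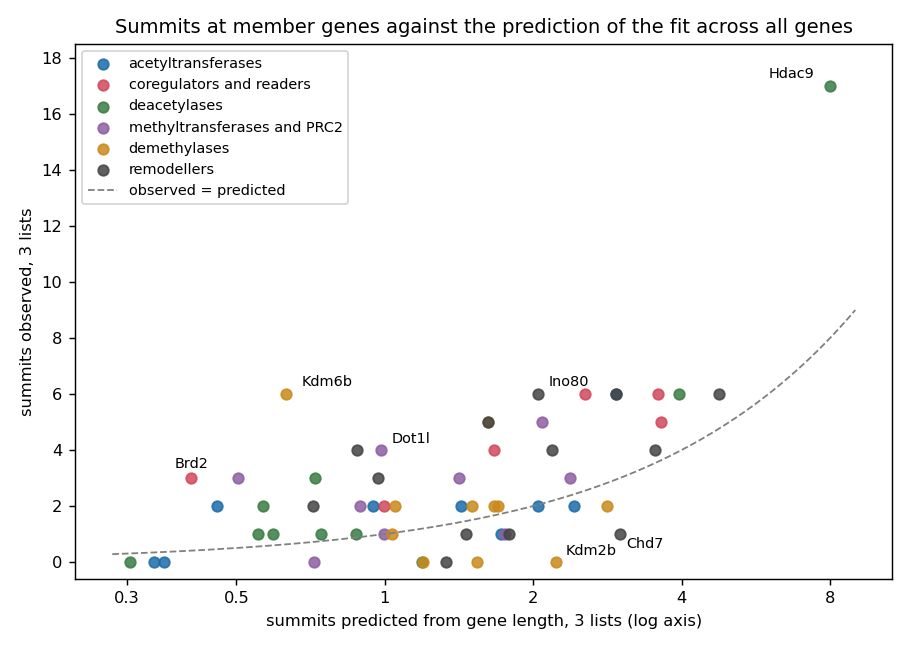
Summits observed in the 3 lists together (vertical axis) against the number predicted from gene length (horizontal log axis), 1 point per member, coloured by class. The dashed curve marks equality; Kdm6b has 6 summits against 0.629 predicted, while Chd7 has 1 against 2.99.

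Demethylases remove methyl groups from histone lysines and included both the most densely hit member and 3 of the members without a summit. Kdm6b, a demethylase of histone H3 lysine 27, had 3 summits in replicate 1, 1 in replicate 3 and 2 in replicate 4. All lay in a window of 31.9 kb, which is 188 summits per Mb, against 0.629 summits predicted. They formed 2 places where peaks of different libraries overlapped, and 2 further summits seen in 1 library each.

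The first place lay just outside the gene, at chr11:69397637-69398348, where peaks of replicates 1 and 4 overlapped by 215 bp. Their folds were 3.79 from 5 fragments and 3.46 from 6 fragments, and their summits were 383 bp apart, 0.687 and 0.304 kb outside the gene's lower-coordinate end. Both summits lay inside the neighbouring gene Tmem88, so they cannot be given to Kdm6b alone. A second place, chr11:69407419-69408101, lay 9.08 to 9.39 kb inside Kdm6b, where peaks of replicates 1 and 3 overlapped by 63 bp with folds of 4.14 from 5 fragments and 2.998 from 7. Replicate 1 had a further summit 7.11 kb into the gene with a fold of 2.76, and replicate 4 had its other summit 4.45 kb beyond the higher-coordinate end, inside the gene Dnah2. With the gene body alone counted, Kdm6b was no longer hit in replicate 4.

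Kdm4b, a demethylase of histone H3 lysines 9 and 36, was the other demethylase hit in all 3 lists, with 3, 1 and 1 summits over 77.8 kb. Its highest fold was 4.09, in replicate 1, 1.43 kb from another summit of the same list. The relatives Kdm4a and Kdm4c had 1 and 2 summits, at or below their predictions of 1.03 and 2.82. Kdm2b, which recognises unmethylated CpG sites, had 0 summits over 119 kb against 2.23 predicted, and its relative Kdm2a had 2, both in replicate 4. Kdm5b and Kdm1a also had 0, against 1.54 and 1.20 predicted, while Kdm5a had 2, both in replicate 1. Kdm7a had 2 summits in replicate 4 alone, and Kdm3a, a regulator of lipid metabolism in mice, had 1 in each of replicates 1 and 3. As a class the 11 demethylases held 22 summits against 17.0 predicted, with ratios of 1.70, 0.809 and 1.18 in replicates 1, 3 and 4.

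**Figure D3:**
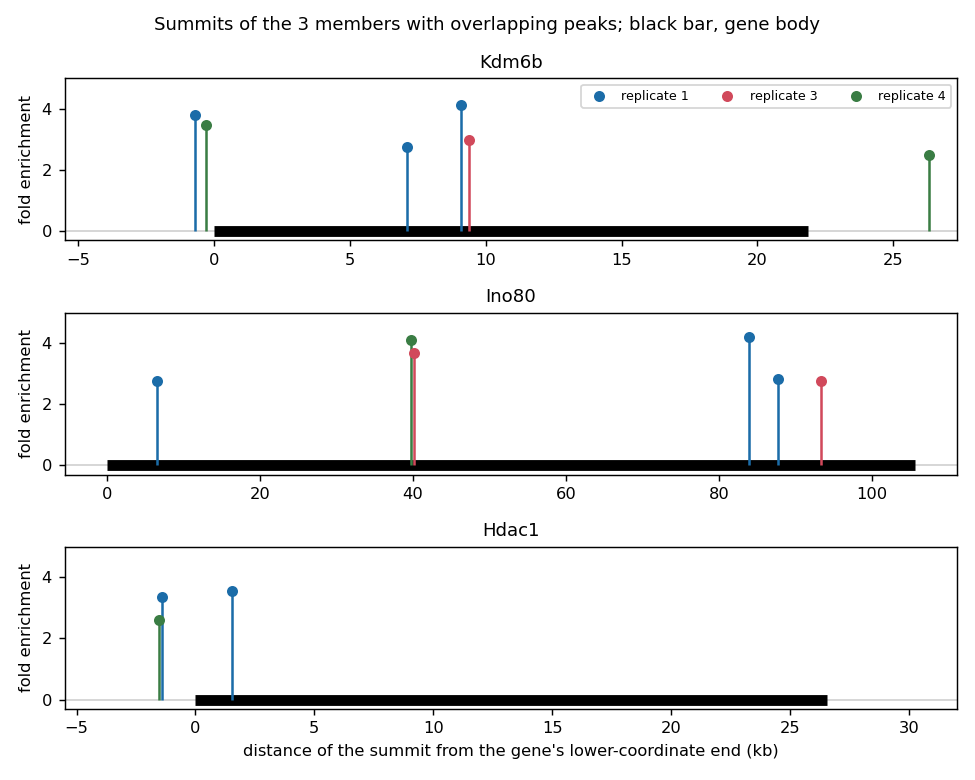
Summits of Kdm6b, Ino80 and Hdac1 by library, placed by distance from the gene's lower-coordinate end in kb (horizontal) with the caller's fold enrichment as height; the black bar is the gene body. Overlapping peaks stand as close pairs of 2 colours, with 2 pairs at Kdm6b and 1 each at Ino80 and Hdac1.

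Remodelling ATPases and their partner subunits held 43 summits over 13 genes, against 27.2 predicted. Ino80, the ATPase of the complex named after it, had 3, 2 and 1 summits in replicates 1, 3 and 4. At chr2:119412512-119413359, inside the gene, a peak of replicate 3 with a fold of 3.68 and one of replicate 4 with a fold of 4.09 overlapped by 42 bp, and each rested on 7 fragments. Their summits were 313 bp apart, at 64.6 and 64.9 kb downstream of the nearest annotated start. Replicate 1 had no peak there, and its own highest summit, with a fold of 4.20 from 5 fragments, lay 20.8 kb from the start.

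Kdm6b and Ino80 were also the only members hit in all 3 lists under either of the stricter choices of peaks. With only peaks at or above the median fold of their list, and with the 6531 peaks of lowest p in each library, members hit in all 3 lists numbered 2 in place of 10, and in both settings they were this pair. These 2 are 3.45% of the members, against 1.41% and 2.17% of all genes in the 2 settings. Genes of like length gave 1.67 and 2.62, so the count itself was near the background. The peak of replicate 3 inside Kdm6b sat exactly at its list's median fold of 2.998.

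Arid1a, a subunit of the SWI/SNF complex, had 1, 3 and 1 summits over 77.8 kb. The 3 of replicate 3 lay between 45.5 and 68.4 kb downstream of the nearest start, whereas those of replicates 1 and 4 lay at 10.7 and 14.9 kb. Its relative Arid1b, with 353 kb the longest remodeller gene, had 5, 0 and 1 summits, near the 4.75 predicted. Chd4, the ATPase of the NuRD repressor complex, had 3 summits in replicate 1, 1 in replicate 3 and none in replicate 4. One of them lay 0.610 kb inside the gene's 3′ end with a fold of 2.53, and a second of the same list was 539 bp from it. Smarca2 and Smarca4 are the alternative ATPases of SWI/SNF. Smarca2 had 2, 0 and 4 summits against 2.94 predicted, and Smarca4 had 1, 0 and 0 against 1.78. Chd2 had the member peak with the highest fold, 4.59 from 6 fragments in replicate 1, which was also the peak with a q of 0.156. Chd7, over 178 kb, had 1 summit against 2.99 predicted, and Chd8 had none against 1.33.

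Smarca5, the ISWI ATPase, had 1 summit in replicate 1 and 2 in replicate 4, against 0.968 predicted. Chd9 had 3 in replicate 1 and 1 in replicate 4, against 3.54 predicted. Chd3 had 1 in each of replicates 1 and 3, against 0.715 predicted, and Chd1 had 1, in replicate 4, against 1.46. Replicate 1 supplied 23 of the 43 remodeller summits, and the ratios to prediction were 2.32, 1.18 and 1.14 in replicates 1, 3 and 4.

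Deacetylases held 32 summits over 10 genes against 17.5 predicted, and Hdac9 alone gave 17 of them. Hdac9, a class IIa deacetylase and the longest member at 870 kb, had 6, 4 and 7 summits against 7.99 predicted (negative binomial adjusted p = 1, unadjusted p = 0.0598). None of its peaks overlapped another library's, and the closest pair of summits from different libraries was 5.04 kb apart. Hdac4, also of class IIa, had 2, 1 and 3 summits against 3.96 predicted. A summit of replicate 4 lay 0.973 kb upstream of an annotated start inside Hdac4, and one of replicate 1 lay 1.27 kb downstream of the same start. The shorter class IIa members were hit little, with 1 summit at Hdac5, in replicate 4, and none at Hdac7.

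Hdac1, a class I enzyme of several corepressor complexes, was the third member with overlapping peaks. A peak of replicate 1 with a fold of 3.34 from 5 fragments and one of replicate 4 with a fold of 2.60 from 4 fragments overlapped by 309 bp at chr4:129514429-129514888. Their summits were 137 bp apart, the closest of any member. They lay 1.41 and 1.55 kb outside Hdac1 and inside the next gene, Marcksl1, so this place too is shared with a neighbour. The other Hdac1 summit, in replicate 1 with a fold of 3.55, lay 1.55 kb inside the gene. Hdac2 had 1 summit, in replicate 3, 95 bp beyond its 3′ end, and its fold of 4.14 from 8 fragments stood at the 97.5th percentile of that list. Hdac3 had 1 summit, in replicate 1, 2.54 kb outside the gene and inside the neighbours Rell2 and Fchsd1. Among the sirtuins, NAD-dependent deacetylases, Sirt1 had 1 summit in replicate 4 and Sirt6 had none.

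Sirt3, the main deacetylase of mitochondria, had the only summit inside an annotated promoter among the 44 members with a promoter entry. Promoters here are the stretch from 250 bases before to 50 after a start in RefSeq (GRCm38.p6, the build that mm10 names). The promoter set used here has entries for 44 of the 58 members, so a summit in a promoter of the others could not be seen. The summit, in replicate 1, lay 11 bp upstream of the Sirt3 start and 74 bp outside Psmd13, a proteasome subunit gene that begins on the other side. Its fold was 3.55 from 4 fragments, and no peak of the other libraries overlapped it. Replicate 3 had a summit 3.84 kb upstream of Sirt3, inside Psmd13. The promoter is shown because it is the place, among these 44 members, where a member's start and a summit coincide. It covers chr7:140882260-140882559 on the minus strand, the 21 capitals are centred on the summit at base 240, and the start is at base 251.

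Sirt3: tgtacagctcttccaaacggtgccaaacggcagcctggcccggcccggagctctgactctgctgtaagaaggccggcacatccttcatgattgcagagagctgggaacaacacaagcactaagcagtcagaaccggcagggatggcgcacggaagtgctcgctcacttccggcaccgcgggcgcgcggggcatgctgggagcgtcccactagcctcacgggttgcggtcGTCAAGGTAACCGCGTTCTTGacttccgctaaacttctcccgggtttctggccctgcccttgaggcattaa

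In this window of Sirt3, 5 motifs were searched on both strands and 0 were found. They were the CCAAT box (CCAAT, in 37.4% of the 32851 promoters of the table), the GC box (GGGCGG, 35.7%), the E-box (CACGTG, 7.15%), the AP-1 site (TGACTCA, 5.20%) and the cAMP response element (TGACGTCA, 1.79%). Among the 67 promoters of the members, 65.7% held a GC box, 31.3% a CCAAT box, 10.4% an AP-1 site, 8.96% an E-box and 0 a cAMP response element. The members' promoters had a median GC content of 65.7%, against 52.7% for all promoters, and that of Sirt3 was 61.0%.

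Methyltransferases and the Polycomb repressive complex 2, which methylates histone H3 lysine 27, held 22 summits over 9 genes against 11.7 predicted. Of these, 14 came from replicate 1, and the class had the widest spread of ratios, at 3.08, 1.57 and 0.873 in replicates 1, 3 and 4. Dot1l, the methyltransferase of histone H3 lysine 79, had 4 summits in replicate 1 and none in the other lists. A pair of them 1.41 kb apart had the same fold of 4.27 from 5 fragments. Ehmt2, a histone H3 lysine 9 methyltransferase with a gene of only 15.6 kb, had 2, 1 and 0 summits against 0.503 predicted, and its partner Ehmt1 had 2, 0 and 1 against 2.37. Nsd1, a histone H3 lysine 36 methyltransferase, was hit in all 3 lists with 3, 1 and 1 summits. The replicate 1 summits of Nsd1 lay 7.42 to 16.6 kb inside the gene's higher-coordinate end.

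In Polycomb complex 2 the catalytic subunit Ezh2 had 1 summit in each list, 3 in all against 1.41 predicted, and that of replicate 1 lay 4.96 kb outside the gene, inside Cul1. Its alternative Ezh1 had 1 in replicate 1 and 1 in replicate 3, the latter 2.61 kb outside the gene, against 0.890 predicted. The partner Suz12 had 1, in replicate 1, and Eed none, against 0.995 and 0.717 predicted. Setd2, a histone H3 lysine 36 methyltransferase, had 1 summit, in replicate 4, against 1.75 predicted.

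Coregulators and the bromodomain reader Brd2 made the class in which every gene was hit and lay above its prediction, with 26 summits over 6 genes against 12.8 predicted. Ncoa1, a coactivator of nuclear receptors, had 3, 2 and 1 summits, and one in replicate 1 reached a fold of 4.27. Ncoa2 had 3 summits in replicate 1 and 2 in replicate 3, whereas Ncoa3 had none in replicate 1, 1 in replicate 3 and 3 in replicate 4. Ncor1, the nuclear receptor corepressor that brings Hdac3 to genes, had 0, 2 and 4 summits, the highest with a fold of 3.99 from 7 fragments in replicate 4 and inside both Ncor1 and Ttc19. Med1, the Mediator subunit that contacts nuclear receptors, had 2 summits, both in replicate 1, at 1.02 and 1.80 kb outside opposite ends of the gene. Brd2 had 2, 1 and 0 summits over 10.8 kb, against 0.404 predicted. Both replicate 1 summits of Brd2 lay outside the gene, and only that of replicate 3, with a fold of 3.16 from 7 fragments, lay inside it.

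Acetyltransferases held 17 summits over 9 genes against 12.7 predicted, a ratio of 1.34 that was, with the 1.30 of the demethylases, the lowest of the 6 classes. Kat6b, the longest of the class at 173 kb, had 2 summits in each list. Its summits of replicates 1 and 3 came as near as 1.78 kb without their peaks overlapping, 3.02 and 4.80 kb inside its 3′ end. The relative Kat6a had 1 summit, in replicate 4, against 1.72 predicted. Crebbp and Ep300, the paralogous coactivators CBP and p300, had 2 summits each, against 2.42 and 1.43 predicted. Crebbp was hit in replicates 1 and 3 and Ep300 in replicates 1 and 4. Ep300 had the higher fold, 3.81 from 6 fragments in replicate 4. Kat2b had a summit in replicate 3 at 0.517 kb upstream of the nearest annotated start, with a fold of 2.61, and another in replicate 4. Its paralogue Kat2a, of 7.74 kb, had none, like Kat5, of 8.54 kb. Kat7 had 1 summit in each of replicates 1 and 3, against 0.947 predicted. Kat8, which acetylates histone H4 lysine 16, was the most densely hit of the class, with 85.8 summits per Mb. It had 1 summit in replicate 1, 1.48 kb inside its 3′ end with a fold of 3.16, and 1 in replicate 4, 1.86 kb beyond that end, inside Prss8, with a fold of 2.94, against 0.456 predicted.

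**Figure D4:**
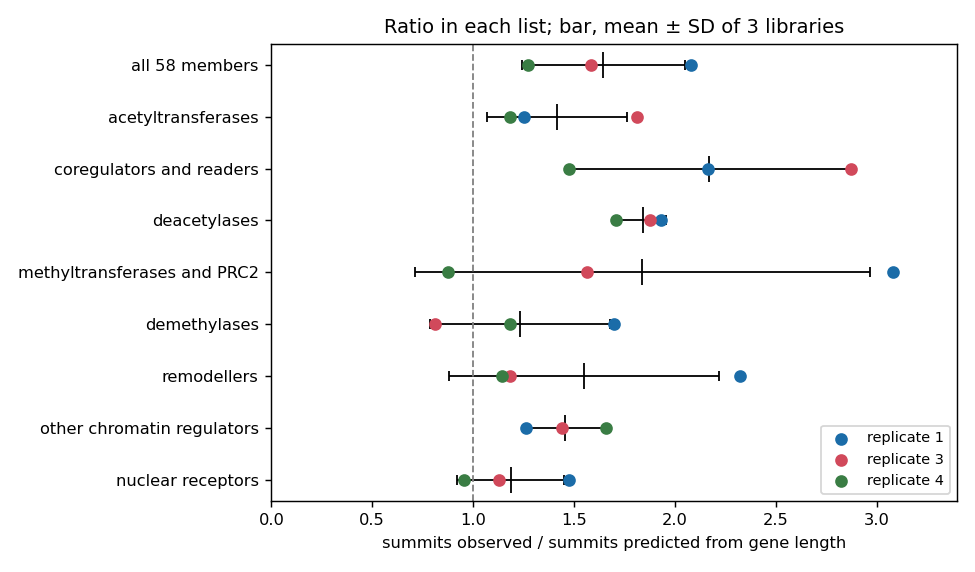
Ratio of observed to predicted summits (horizontal) for all 58 members, the 6 classes, 79 other chromatin regulators and 49 nuclear receptors, with 1 point per library and a bar for the mean and SD. The member total lies above 1 in each library at 2.08, 1.59 and 1.27, and the methyltransferases spread the most.

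The ranking of classes changed from list to list. The methyltransferases came first in replicate 1 and last in replicate 4, the coregulators came first in replicate 3 with 2.87, and the deacetylases came first in replicate 4 with 1.71. The deacetylases varied least, at 1.84 ± 0.116 (SD, n = 3), and the methyltransferases most, at 1.84 ± 1.13. Differences between classes were not tested.

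Gene ends were hit rarely. A summit within 1 kb of a gene end was found at 3 members in replicate 1, 2 in replicate 3 and 1 in replicate 4, that is 5.17%, 3.45% and 1.72%, against 3.49%, 1.33% and 1.97% of all genes. The 6 summits lay at 5 genes: Kdm6b in replicates 1 and 4, Sirt3 and Chd4 in replicate 1, and Kat2b and Hdac2 in replicate 3. A difference from other genes at gene ends was not tested. Within 3 kb of an end there were 12, 5 and 3 members in replicates 1, 3 and 4 (20.7%, 8.62% and 5.17%), against 8.99%, 4.25% and 6.16% of all genes. Most of the 162 summits, 136, lay inside the gene body, and 12 lay inside another protein-coding gene as well as in a member's window.

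Along the gene body, the last 25% of the length held the largest share of the members' summits in replicates 1 and 3. For the 44 members with a strand, 38 of 104 summits in the body (36.5%) were in the last 25% of the gene's length and 24 (23.1%) in the first 25%, while all genes with a strand had 25.2% in the last 25%. The share in this last stretch was 40.0%, 43.5% and 27.8% in replicates 1, 3 and 4, against 26.4%, 27.2% and 23.0% for all genes. These shares rest on 45, 23 and 36 summits, several of them in the same genes, and were not tested. They were not computed for genes of like length. In replicate 1 there was no steady rise along the gene, as the first stretch held 24.4% of the members' summits and the third 15.6%.

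**Figure D5:**
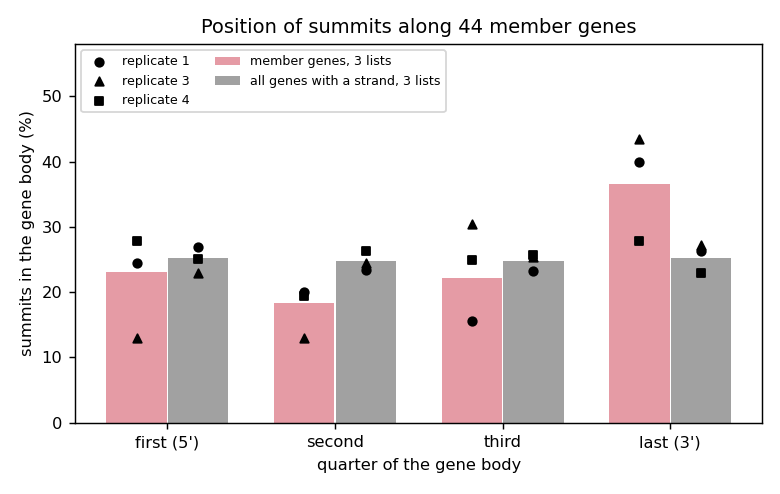
Share of gene-body summits (percent, vertical) in each stretch of 25% of the gene's length from 5′ to 3′, for the 44 member genes with a strand and for all genes with a strand; bars are the 3 lists together and symbols the single libraries. The last stretch holds 36.5% of the members' summits and 25.2% of those of all genes.

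Agreement between libraries at single sites was limited to few members. Peaks of 2 lists overlapped at Hdac1, Ino80 and Kdm6b, that is 5.17% of the members against 0.475% of all genes, and genes of like length gave 0.440 for a list of 58. None of these 4 places was seen in the third library. With summits required to lie within 100 bp no member was left, and with 50% reciprocal overlap Hdac1 alone. Without replicate 1 or without replicate 4, 1 member had overlapping peaks, and without replicate 3 there were 2. The share of all genes was not computed under these other settings of overlap. Among the 33 members hit in at least 2 lists, the nearest summits of different lists were a median of 7.16 kb apart, against 10.4 kb in the 3549 such genes of all genes. They were within 1 kb in 3 of the 33 (9.09%), against 8.09% of those genes, a share near the background.

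Peak height was ranked by fold within each list. The median member peak stood at percentile 53.3 in replicate 1, 42.8 in replicate 3 and 31.7 in replicate 4, so those of replicate 4 were mostly among the lower peaks of their list. Of the 162, 9 (5.56%) were at or above the 95th percentile: in replicate 1 these were at Chd2, Ehmt2, Kdm5a, Ncoa1 and, with 2 peaks, Dot1l, in replicate 3 at Hdac2, and in replicate 4 at Ino80 and Ncor1. Because the ranks run over all peaks of a list, this share is near that of all peaks. By list it was 7.89%, 2.94% and 3.85% in replicates 1, 3 and 4.

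Other chromatin regulators, a list of 79 genes that includes the KMT2 methyltransferases, the TET and DNMT enzymes and further SWI/SNF and Mediator genes, were counted in the same way. They held 153 summits, 1.46 times the prediction, with ratios of 1.26, 1.44 and 1.66 in replicates 1, 3 and 4, so that here replicate 4 was highest and not replicate 1. Of them 9 (11.4%) were hit in all 3 lists, against 4.4% of all genes and 5.16 for genes of like length. None had overlapping peaks, against 0.475% of all genes and 0.556 for genes of like length. None passed the negative binomial test after adjustment, and 8 had an unadjusted p below 0.05, against 3% of all genes. Nuclear receptors, which recruit many of the members, had ratios of 1.47, 1.13 and 0.955 over 49 genes. Among these, 1 gene, Thrb, had overlapping peaks, against 0.28 for genes of like length. Whether the members differ from these lists was not tested.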

How the data were processed

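Chromatin immunoprecipitation sequencing of 3 anti-Flag libraries was deposited as 1 peak list per library. The submitters' processing notes name build mm10 and, as tools, MACS2 2.1.0, BWA 0.7.12 and fastp 0.19.11. No source used here says if input served as control, and the labels name both single-end and paired-end reads of 75 bp. Each peak has, from the authors' caller, a fold enrichment ratio, a −log10 p-value, a −log10 q-value and a whole-number score, which in the deposited lists is 10 times the −log10 p cut to a whole number and was not used further.

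Peaks sharing an interval were reduced to the summit of lowest p. Fragments per summit were solved from fold and p as a Poisson tail, and the deposited p was met with a tolerance of 0.001 (log10) at 100% of peaks. Genes came from RefSeq GRCm38.p6, protein-coding, chromosomes 1 to 19, X and Y. All genes entered the negative binomial regression (statsmodels 0.14.6, Python 3.11.15), whose upper tail gave p, adjusted by Benjamini-Hochberg at 0.05. Run on simulated data, the test recovered only part of the genes given extra summits, so a gene past no threshold is not shown to lack an excess. Members, classes and other lists were chosen with earlier results of these data known. All 58 members are counted. Those given in most detail were hit in all 3 lists, had summits at gene ends or overlapping peaks, or were the densest of their class. The comparison of surroundings, the ratio to prediction, the position along the gene, the setting without Hdac9 and the backgrounds under other settings were added after the data were seen. Overlap meant at least 1 bp. Depth in reads is unknown.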

Additional observations from a re-analysis of the deposited data

How the results depend on the processing

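Of 155 values recomputed under an alternative, 140 kept their side of the threshold, a count within 1.5 times or a ratio within the SD between libraries (0.406). Most of the 155 were adjusted p-values of the 9 members with an unadjusted p below 0.05. All of these adjusted values were above the threshold as reported and kept their side by staying there, so the tally says little about the counts. With only peaks at or above the list's median fold, hit members were 13 in replicate 3 and 10 in replicate 4, members hit in all 3 lists were 2, and gene ends in replicate 3 gave 1. With 6531 peaks per library, replicate 4 hit 9 members and all 3 lists 2. A window of 3 kb at gene ends gave 12, 5 and 3 members in replicates 1, 3 and 4 (8.99%, 4.25% and 6.16% of all genes), and overlap by summits within 100 bp and by 50% reciprocal overlap gave 0 and 1 members. Leaving out 1 replicate, 13 to 20 members were hit in both remaining lists and 1 to 2 had overlapping peaks (1 without replicate 1, 2 without replicate 3 and 1 without replicate 4). A hit in 2 lists is an easier demand than a hit in all 3. Shares of all genes and of genes of like length were not computed without a replicate, so these counts show no excess. No alternative that was run gave a member an adjusted p below 0.05 in the regression, and the ratio of observed to predicted summits ranged from 1.37 to 1.90. The adjusted p of Kdm6b ranged from 0.0728 (Poisson model) to 1. The number of genes called over all genes was 4 as reported, 10 with the Poisson model, 6 with 10 kb either side, 1 with only peaks at or above the median fold, and 0 with gene bodies alone. It was 0 without replicate 1, 1 without replicate 3 and 2 without replicate 4. Gene ends and overlaps rest on so few fragments that their absence is not shown. No paired analysis was possible because the input libraries with the same replicate numbers have no values here and only 1 group was measured.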
